A study of Mus musculus with 18 samples.

Results

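The genes described are 10 enzymes and regulators of de novo lipogenesis: Srebf1, Mlxipl, Acly, Acaca, Acacb, Fasn, Scd1, Elovl6, Thrsp and Me1. They were taken by name from the array annotation, using only probe sets assigned to a single gene symbol. The array carried 23 such probe sets, 1 to 6 a gene, and all 10 genes were among the 13221 tested of 18193 with a probe set. For each gene the probe set with the highest mean over all arrays is the main one, and the other probe sets are described where they differ from it.

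RNA of whole liver from wild-type CD1 mice, an outbred strain, was hybridised to 18 Affymetrix arrays, 3 in each of 6 groups. In the prevention model, mice were injected for 1 week with vehicle or with CMPF at 6 mg/kg/day, then fed for 4 weeks (up to 5 in the series' text) a high-fat diet (HFD) in which fat supplied 60% of the energy. In the reversal model, mice ate the HFD for 6 weeks and were then injected with vehicle or the same daily dose of CMPF for 2 weeks. Each model had its own group labelled as chow control, a group on HFD with vehicle and a group on HFD with CMPF. The titles of the chow groups carry the word Control, as do those of the HFD groups with vehicle. Beyond that word no injection is recorded for the chow groups, and whether they received vehicle is not stated. So between chow and HFD an effect of injection cannot be told apart from diet. CMPF is a furan fatty acid found in blood plasma. All mice were wild type, CMPF was given only on HFD, and age, sex and feeding state at sampling are not given in the sources used here. Whether the 3 arrays of each group stand for 3 separate animals is not stated, so p-values measure only how far these arrays spread, which may be technical.

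De novo lipogenesis builds fatty acids from acetyl-CoA, and in liver it runs mainly after a carbohydrate meal. Insulin raises its genes through the transcription factor SREBP1c, a product of Srebf1, and glucose through ChREBP, the product of Mlxipl. Acly makes cytosolic acetyl-CoA from citrate, Acaca and Acacb make malonyl-CoA, Fasn makes palmitate with NADPH that Me1 helps to supply, and Elovl6 and Scd1 lengthen and desaturate the product. Thrsp, known as Spot 14, is a small protein induced together with these enzymes.

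Of the 10 genes, 9 had a RefSeq promoter entry (build GRCm38.p6), with 13 start sites in all; Scd1 is named only. The 250 bases before the start site are shown for Thrsp, Fasn and Elovl6, the genes whose main probe set passed the test in at least 1 comparison within a model. Capitals mark matches to the motifs searched on both strands, and each line is written 5′ to 3′ along the gene.

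Thrsp (chr7:97417551-97417800, minus strand): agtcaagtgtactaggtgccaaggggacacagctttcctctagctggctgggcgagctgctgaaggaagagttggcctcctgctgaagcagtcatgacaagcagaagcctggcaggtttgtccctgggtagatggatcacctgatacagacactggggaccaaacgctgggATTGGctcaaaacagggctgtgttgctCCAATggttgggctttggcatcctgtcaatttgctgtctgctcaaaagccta
Fasn (chr11:120824548-120824797, minus strand): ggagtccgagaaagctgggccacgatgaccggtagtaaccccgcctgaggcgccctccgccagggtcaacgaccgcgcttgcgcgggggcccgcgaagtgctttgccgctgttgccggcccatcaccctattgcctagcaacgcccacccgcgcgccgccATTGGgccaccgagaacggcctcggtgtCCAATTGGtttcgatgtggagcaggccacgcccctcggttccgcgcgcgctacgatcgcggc
Elovl6 (chr3:129532136-129532385, plus strand): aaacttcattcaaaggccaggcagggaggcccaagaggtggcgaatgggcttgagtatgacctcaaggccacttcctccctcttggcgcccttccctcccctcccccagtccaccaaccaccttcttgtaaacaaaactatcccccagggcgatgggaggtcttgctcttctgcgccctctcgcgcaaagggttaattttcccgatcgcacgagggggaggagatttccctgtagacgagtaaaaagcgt

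The capitals in these lines are all the 5-letter core CCAAT, the NF-Y box, or its reverse ATTGG. Thrsp held a pair of matches, beginning 79 and 52 bases before the start. Fasn held 3, at 90, 62 and 59 bases, the last pair overlapping. Elovl6 held none of the motifs searched. The core was found in 7 of the 13 windows of these genes and in 33.9% of all 32851 windows of this length. The other motifs were searched in the same way. The E-box CACGTG was in 1 of the 13 windows (Mlxipl) and in 6.02% of all. The SREBP element TCACNCCAC was in 1 of the 13, the other Mlxipl start, and in 1.05% of all. The Sp1 box GGGCGG was in 5 and in 32.7% of all, and the TATA box TATAAA was in 1 (Acacb) and in 12.4% of all. A match describes letters in the window and no more.

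Values are RMA expression on the log2 scale, on which 1 unit is a 2-fold step, and they compare the same probe set between arrays, not genes with each other. The mean of an array was 5.08 to 5.10 in the prevention model and 5.25 to 5.26 in the reversal model, so levels are compared only within a model. Arrays 2 and 3 of the prevention group on CMPF were nearly identical, with 0 genes over 2-fold apart, where every other pair of arrays (152 in number) had at least 115. They were averaged and counted as 1 sample, which leaves n = 2 in that group and 17 samples in all. Array 2 of the reversal chow group stood apart, with a median correlation of 0.948 with its model's arrays against at least 0.975 for every other array. The 3′ to 5′ index of the control probe sets, higher where RNA is shorter, was 0.97 to 1.98 in prevention chow and 2.66 to 3.19 in prevention HFD. In the reversal model it overlapped, at 2.51 to 3.57 in chow, 1.55 to 3.43 in HFD and 1.66 to 3.57 with CMPF. Hepatocyte markers were high on all arrays (Alb 14.4 to 14.7), and 4 of 6 adipocyte markers had a probe set. Of these Adipoq (2.86 to 4.65) and Lep (3.12 to 3.71) fell under the filter on low values and Retn (4.65 to 5.65) and Cidec (3.59 to 6.02) passed it. In whole tissue, fewer cells of a type and less RNA per cell cannot be told apart.

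**Figure D1:**
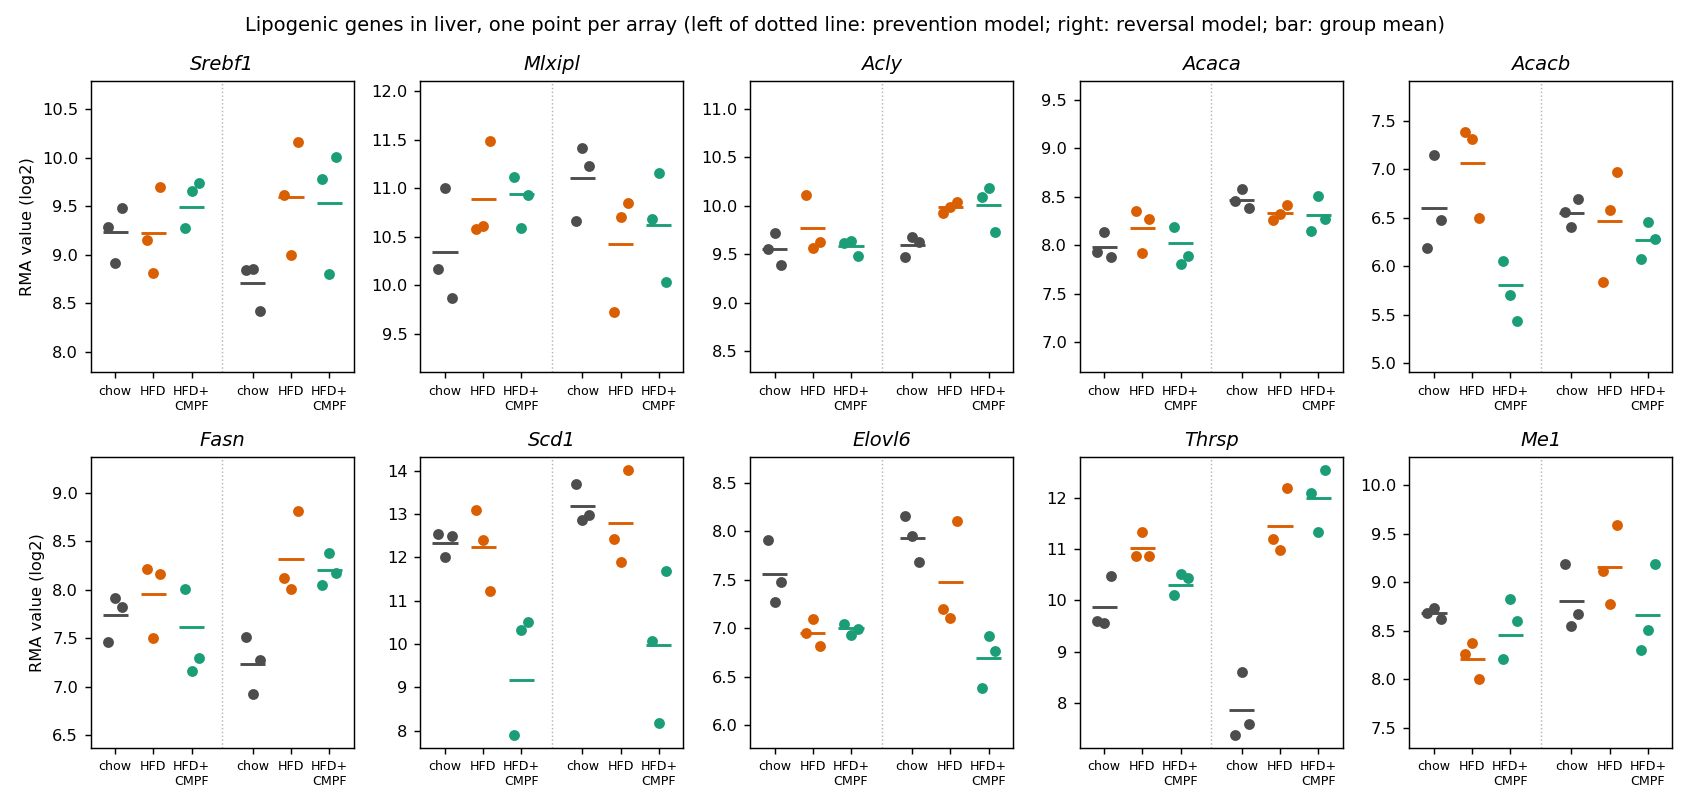
RMA log2 value (y axis) of the main probe set of each gene on each of the 18 arrays, grouped by diet and treatment (x axis); points are arrays, bars are group means, and the y axes differ between genes. Thrsp on HFD in the reversal model (10.97 to 12.18) lies above chow (7.38 to 8.60), and Scd1 with CMPF lies below HFD in both models.

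The first comparison sets HFD with vehicle against chow. In the reversal model Thrsp rose 12.1-fold and Fasn rose 2.11-fold, and no member fell. No member passed in the prevention model. With limma's moderated test across all genes (threshold 0.05 after Benjamini-Hochberg adjustment), 2 of 10 members were called in the reversal model, against 2.45% of the genes tested (2.17% higher, 0.280% lower). For the prevention model 0 of 10 were called and 2 were under 0.05 before adjustment, where 5.57% of all genes were called and 24.8% were under 0.05 before adjustment. The median log2 difference of the members was 0.20 in the prevention and 0.13 in the reversal model, against 0.0016 and 0.032 over all genes tested. Chow and HFD arrays did not overlap for 3 members in the prevention model (29.2% of all genes) and for 4 in the reversal model (23.3%).

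Thrsp showed the largest HFD difference of the 10 genes. On the reversal arrays its log2 level was 7.38, 8.60 and 7.60 on the chow arrays. With HFD it was 11.20, 10.97 and 12.18, so the lowest HFD array lay over 2 log2 units above the highest chow array. The difference was 3.59 ± 0.40 (SE; adjusted p = 7.65e-04). With the 3′ to 5′ index as a covariate it was 3.46 (adjusted p = 0.00127). Prevention chow read 9.59, 9.55 and 10.48 and prevention HFD 10.87, 11.33 and 10.85. These did not overlap either, and the difference of 1.14 ± 0.40 had an adjusted p of 0.0977. Fitted on the prevention arrays alone it passed, with an adjusted p of 0.0377, the lowest of all alternatives, single probe sets aside. With 1 array left out at a time the difference ran from 0.984 to 1.45. In the other alternatives, single probe sets aside, it fell as low as 0.495.

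Fasn, the synthase that carries out all steps from malonyl-CoA to palmitate, read 7.51, 6.93 and 7.28 on reversal chow. On reversal HFD it read 8.13, 8.0 and 8.82, with no overlap and a difference of 1.08 ± 0.26 (adjusted p = 0.0469). That p lies close to the threshold, and the call was lost without array 2 or array 3 of reversal chow, or without any 1 of the 3 reversal HFD arrays (adjusted p = 0.0598 to 0.139). Prevention arrays of Fasn read 7.46, 7.92 and 7.83 on chow and 8.22, 7.50 and 8.16 on HFD. Those groups overlapped (difference 0.22 ± 0.26, adjusted p = 0.642).

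Srebf1, the upstream regulator, read 8.84, 8.85 and 8.42 on reversal chow and 9.62, 9.0 and 10.16 on reversal HFD. All HFD arrays were the higher ones, but the difference of 0.89 ± 0.33 did not pass (adjusted p = 0.152). Prevention arrays read 9.29, 8.92 and 9.48 on chow and 9.15, 8.81 and 9.69 on HFD, a difference of -0.0085 ± 0.33 (adjusted p = 0.991). The reversal interval ran from 0.17 to 1.61 and the prevention interval from -0.73 to 0.71. Mlxipl, the sugar-responsive regulator, differed by 0.55 ± 0.38 in the prevention model (adjusted p = 0.404) and by -0.68 ± 0.38 in the reversal model (adjusted p = 0.303). Its arrays overlapped in both. So the gene for one regulator was higher and the gene for the other lower on reversal HFD, neither past the threshold. Without array 1 of reversal HFD the Mlxipl difference there was -0.32. In the prevention model, where the 3′ to 5′ index separated chow from HFD, Mlxipl was -0.44 with that index as a covariate.

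Among the other enzymes, Acly on its main probe set read 9.47, 9.67 and 9.62 on reversal chow and 9.92, 9.98 and 10.04 on HFD. The groups did not overlap, and the difference of 0.39 ± 0.15 had an adjusted p of 0.158. Elovl6, the elongase that takes palmitate to stearate, was 7.91, 7.27 and 7.48 on prevention chow and 6.95, 7.09 and 6.81 on prevention HFD. Every HFD array was below every chow array, with a difference of -0.60 ± 0.24 (adjusted p = 0.144). Me1 in the prevention model also lay lower on every HFD array (8.0 to 8.38) than on chow (8.63 to 8.73), by -0.47 ± 0.25 (adjusted p = 0.264). Acaca and Acacb differed by 0.20 ± 0.14 and 0.46 ± 0.31 in the prevention model and by -0.14 ± 0.14 and -0.089 ± 0.31 in the reversal model, with adjusted p from 0.379 to 0.890. Scd1, the desaturase that makes oleate, showed the least precise values, -0.10 ± 0.82 and -0.39 ± 0.82, with 95% intervals reaching from -2.15 to 1.66.

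**Figure D2:**
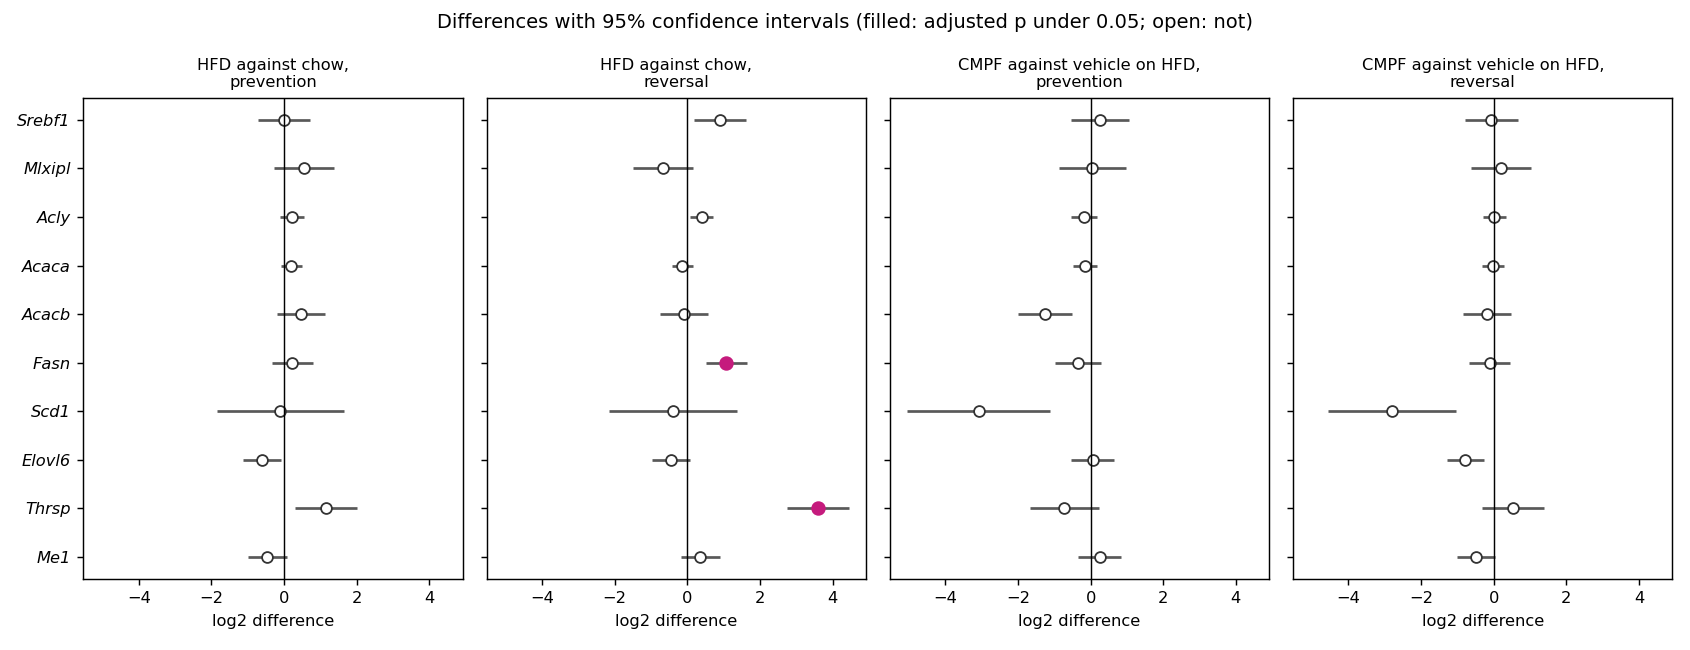
Log2 difference (x axis) of each gene (y axis) with its 95% confidence interval in 4 comparisons; filled points passed an adjusted p of 0.05. Only Thrsp and Fasn in HFD against chow of the reversal model are filled, and the widest intervals are those of Scd1.

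Other levels moved along with these differences. The summed linear level of the 8 fasting-responsive genes with a probe set, such as Pck1 and Cpt1a, was 17008 to 23184 in prevention chow and 8546 to 13549 in prevention HFD. Reversal chow gave 16741 to 25389 and reversal HFD 8482 to 15509, so the ranges were apart in both models. Of these 8 genes, 2 fell in the prevention model (3.83% of all genes did), Cpt1a by 0.96 ± 0.14 and Pck1 by 1.11 ± 0.28 (adjusted p = 0.00931 and 0.0393), and 0 passed in the reversal model, where 4 were under 0.05 before adjustment (22.4% of all genes). In each model 2 of the 8 were higher on HFD, by up to 1.22 in prevention and 0.30 in reversal, with 0 of these past the threshold. The 12 clock genes summed to 3625 to 4549 in reversal chow and to 5308 to 6777 in reversal HFD, the higher of the pair. Prevention ran the other way without overlap, with 5687 to 6469 in chow and 4269 to 5505 in HFD, and 1 clock gene, Nr1d2, fell there by 0.44 ± 0.11 (adjusted p = 0.0401). These linear sums weigh bright genes most. Gene by gene, 6 of the 12 were higher on reversal HFD (median log2 difference 0.082) and 8 of the 12 on prevention HFD (median 0.15). On reversal HFD Ciart rose by 1.04 ± 0.16 and Arntl fell by 0.81 ± 0.15 (adjusted p = 0.00751 and 0.0153), and 2 clock genes in all rose (2.17% of all genes). Kupffer cell markers, 7 of 7 with a probe set above the filter, summed to 1183 to 1813 in reversal chow and 1596 to 2354 in reversal HFD. All 7 were higher on reversal HFD (median 0.84), with 0 past the threshold and 1 under 0.05 before adjustment (22.4% of all genes). On prevention HFD 3 of the 7 were higher (median -0.0033). Pancreatic acinar markers, 3 of 5 with a probe set, summed to 82.2 to 478 in prevention chow and 78.4 to 83.5 in prevention HFD, and to 60.5 to 198 in reversal chow and 56.3 to 65.0 in reversal HFD. Adipocyte markers summed to 78.2 to 96.2 and 83.0 to 101 in prevention chow and HFD and to 67.0 to 89.0 and 60.4 to 112 in reversal chow and HFD, ranges that overlapped. The part of these levels in the results for the lipogenic genes was not tested.

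The next comparison asks what CMPF did to mice on HFD. With CMPF, Scd1 stood at 0.12 times its HFD level in the prevention model and at 0.14 times in the reversal model, with no overlap of arrays in either, yet neither difference passed the test across all genes. Acacb stood at 0.42 times its HFD level in the prevention model and Elovl6 at 0.58 times in the reversal model, and neither passed. The member median was -0.17 in the prevention and -0.089 in the reversal model, against 0.017 and -0.0093 over all genes. In limma's fit 0 of 10 members were called in each model, where 0% and 0.0378% (5 genes) of all genes were called. Before adjustment 2 members in each model were under 0.05, against 8.02% and 4.80% of all genes. Arrays did not overlap for 3 members in the prevention model and 2 in the reversal model, against 30.7% and 8.83% of all genes.

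Scd1 read 13.08, 12.40 and 11.23 on prevention HFD. With CMPF it read 7.91 on array 1 and 10.32 and 10.50 on the near-identical pair. The lowest value, on array 1, was under 8 and all others over 10. The difference was -3.08 ± 0.92 (adjusted p = 0.409), with a 95% interval from -5.05 to -1.11. Reversal HFD read 12.43, 11.90 and 14.02 and reversal CMPF 10.08, 8.17 and 11.69. Again every CMPF array was below every HFD array, but the CMPF arrays themselves spanned over 3 log2 units. The difference was -2.81 ± 0.82 (adjusted p = 0.569), with an interval from -4.57 to -1.05. Without array 1 of the prevention CMPF group it was -1.83, and without array 2 of the reversal CMPF group it was -1.90.

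The models share no array, so the mean of their CMPF effects was also fitted, a choice made after the data were seen. For Scd1 the mean was -2.94 ± 0.62, with an interval from -4.26 to -1.62 and a p of 2.92e-04 in limma's fit before adjustment, rank 18 of 13221. After adjustment it was 0.206. In that fit 0% of all genes were called and 5.20% were under 0.05 before adjustment. The difference between the models' Scd1 effects was 0.27 ± 1.23 (interval -2.37 to 2.92), too wide to rank one model over the other.

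Acacb, the carboxylase isoform at mitochondria, read 7.38, 7.31 and 6.49 on prevention HFD and 6.05, 5.70 and 5.44 with CMPF. The groups did not overlap, at -1.25 ± 0.34 (adjusted p = 0.359). Reversal HFD read 5.84, 6.59 and 6.98 and CMPF 6.08, 6.46 and 6.28, which lay inside the HFD range (-0.19 ± 0.31, adjusted p = 1.00). For Elovl6 the separation was in the reversal model, where HFD read 7.20, 7.11 and 8.10 and CMPF 6.38, 6.92 and 6.76, apart by -0.78 ± 0.24 (adjusted p = 0.598). On prevention HFD it read 6.95, 7.09 and 6.81 and with CMPF 7.05, 6.93 and 6.99, a difference of 0.053 ± 0.27 (adjusted p = 0.982).

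Thrsp with CMPF in the prevention model read 10.10, 10.52 and 10.44, below all its HFD arrays, by -0.73 ± 0.44 (adjusted p = 0.757). Reversal CMPF read 12.09, 11.32 and 12.54, overlapping HFD at 0.53 ± 0.40 (adjusted p = 1.00). For Fasn the CMPF differences were -0.34 ± 0.29 and -0.11 ± 0.26, and for Srebf1 0.27 ± 0.37 and -0.063 ± 0.33. Mlxipl, Acly, Acaca and Me1 differed by -0.49 to 0.25 in either model. These genes, from Fasn on, had adjusted p of at least 0.832. The 95% intervals of Acaca were -0.49 to 0.17 and -0.32 to 0.27.

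Beside these values, clock genes summed to 6341 to 7529 in reversal CMPF against 5308 to 6777 in reversal HFD. None of the 12 clock genes passed for CMPF in limma's fit, with 4 under 0.05 before adjustment in the reversal and 0 in the prevention model, and Ciart at 0.86 ± 0.16 had the smallest p (adjusted p = 0.112). Of the fasting-responsive genes 0 passed, and 3 of 8 in the reversal and 0 in the prevention model were under 0.05 before adjustment, where 4.80% and 8.02% of all genes were. Pck1, the gluconeogenic enzyme, was 0.95 ± 0.28 higher in the reversal model (adjusted p = 0.569). The 7 Kupffer cell markers were all lower with CMPF in the prevention model (median -0.48), and 3 of 7 were higher in the reversal model (median -0.024); 0 passed and 0 were under 0.05 before adjustment in either. They summed to 865 to 1796 with CMPF against 917 to 3601 without it in the prevention model, and to 1586 to 2264 against 1596 to 2354 in the reversal model, so the ranges overlapped. Adipocyte markers summed to 72.3 to 80.4 in prevention CMPF, below prevention HFD, and to 62.4 to 74.7 in reversal CMPF, inside the reversal HFD range. The part of these genes in the results for the members was not tested.

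Mice on HFD with CMPF were also set against chow; this comparison shares its arrays with those above, so its values are given beside theirs and not as further support. Reversal mice had Thrsp 17.5-fold above chow, and Elovl6 fell by 1.24 ± 0.24 on the log2 scale (adjusted p = 1.64e-04 and 0.0190). That is 2 of 10 members called, against 2.00% of all genes (1.61% higher, 0.393% lower). Elovl6 read 8.15, 7.95 and 7.68 on chow and 6.38 to 6.92 with CMPF. Its call was lost without array 1 or 2 of reversal chow or without array 1 or 3 of reversal CMPF (adjusted p = 0.0516 to 0.0874), with the difference between -1.36 and -1.09 over all single arrays left out. Counting other settings it was lost in 8 of 16 alternatives, among them the probe sets 1417403_at (-1.07, adjusted p = 0.0516) and 1442656_at (-0.42, adjusted p = 0.567). Scd1 was -3.20 ± 0.82 against chow (adjusted p = 0.0627). It passed without array 3 of the CMPF group (-4.05, adjusted p = 0.0447), with the 3′ to 5′ index as a covariate (-3.72, adjusted p = 0.0160) and with all 18 arrays counted (adjusted p = 0.0489). The second Scd1 probe set differed by -0.47 (adjusted p = 0.775). Fasn was 0.96 ± 0.26 (adjusted p = 0.0744). For the prevention model limma called 0 of 10 members and 0% of all genes. There 2 members, Scd1 (-3.18 ± 0.92) and Acacb (-0.79 ± 0.34), were under 0.05 before adjustment, against 9.99% of all genes.

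Whether the HFD difference from chow differed between the models was tested directly. Thrsp had the larger HFD difference in the reversal model, by 2.45 ± 0.56 (adjusted p = 0.0256). It was the only member called, against 11.0% of all genes (8.84% higher, 2.15% lower). The call was lost without array 1 or 3 of prevention chow, array 3 of prevention HFD or array 1 of reversal HFD (adjusted p = 0.0572 to 0.0700), though the value stayed between 2.09 and 2.82 without any single array. With the 3′ to 5′ index as a covariate it was 1.96 (adjusted p = 0.282). Averaged over both models, the HFD effect on Thrsp was 2.37 ± 0.28 (adjusted p = 0.00132), with 1.72% of all genes called. Mlxipl, Fasn and Me1 had unadjusted p of 0.0403, 0.0371 and 0.0350 for the difference between models in limma's fit and did not pass (adjusted p = 0.131 to 0.142). With Thrsp that is 4 of 10 members under 0.05 before adjustment, against 31.0% of all genes. Of the 12 clock genes 3 had a higher and 1 a lower HFD difference in the reversal model, and their part in the difference for Thrsp was not tested. For CMPF 0 of 10 members and 0% of all genes differed between models by adjusted p. Acacb (1.06 ± 0.46) and Elovl6 (-0.84 ± 0.36) were under 0.05 before adjustment, as were 7.93% of all genes.

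Probe sets of one gene did not always move alike. Of the 23 probe sets, 18 passed the filter on low values, and Srebf1, Mlxipl and Fasn had a single one. Acly showed the clearest disagreement. Its main probe set 1439459_x_at, whose name marks probes that can bind related transcripts, differed by 0.21 in the prevention model. Probe set 1451666_at read 8.28, 7.92 and 8.13 on prevention chow and 7.55, 7.39 and 7.17 on HFD, all lower (-0.74 ± 0.20, adjusted p = 0.0582 over all probe sets). Reversal arrays of the same probe set read 7.64, 7.56 and 7.47 on chow and 9.0, 8.22 and 8.40 on HFD. It rose there by 0.98 ± 0.20 (adjusted p = 0.0379), and the difference between models, 1.73 ± 0.29, passed as well (adjusted p = 0.0191). Probe set 1425326_at went the same ways, -1.33 ± 0.47 and 0.86 ± 0.47, without passing. Which probe set follows the Acly transcript was not tested.

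The second Scd1 probe set, 1415965_at, was dim, with a mean of 5.40 over all arrays against 11.7 for the main one. It was lower with CMPF by -1.44 ± 0.73 in the prevention and -1.53 ± 0.65 in the reversal model, smaller differences than those of the main one. Its prevention arrays overlapped, since HFD array 3 at 5.12 lay below CMPF array 2 at 5.27. The second Thrsp probe set, 1422973_a_at, rose by 3.86 ± 0.62 on reversal HFD (adjusted p = 0.0135), as the main one did, but differed by only 0.27 ± 0.62 in the prevention model. The third, 1444166_at, read 5.65 to 6.29 on all arrays and differed by 0.12 ± 0.12 on reversal HFD. For Elovl6, 1417403_at followed the main probe set (-0.73 and -0.38 for HFD, 0.012 and -0.69 for CMPF). The dim 1442656_at was at 0.073 for reversal CMPF. Me1 1430307_a_at differed by -0.81 ± 0.40 and 0.90 ± 0.40 on HFD in the prevention and reversal models, with a wider swing than the main one (-0.47 and 0.36).

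**Figure D3:**
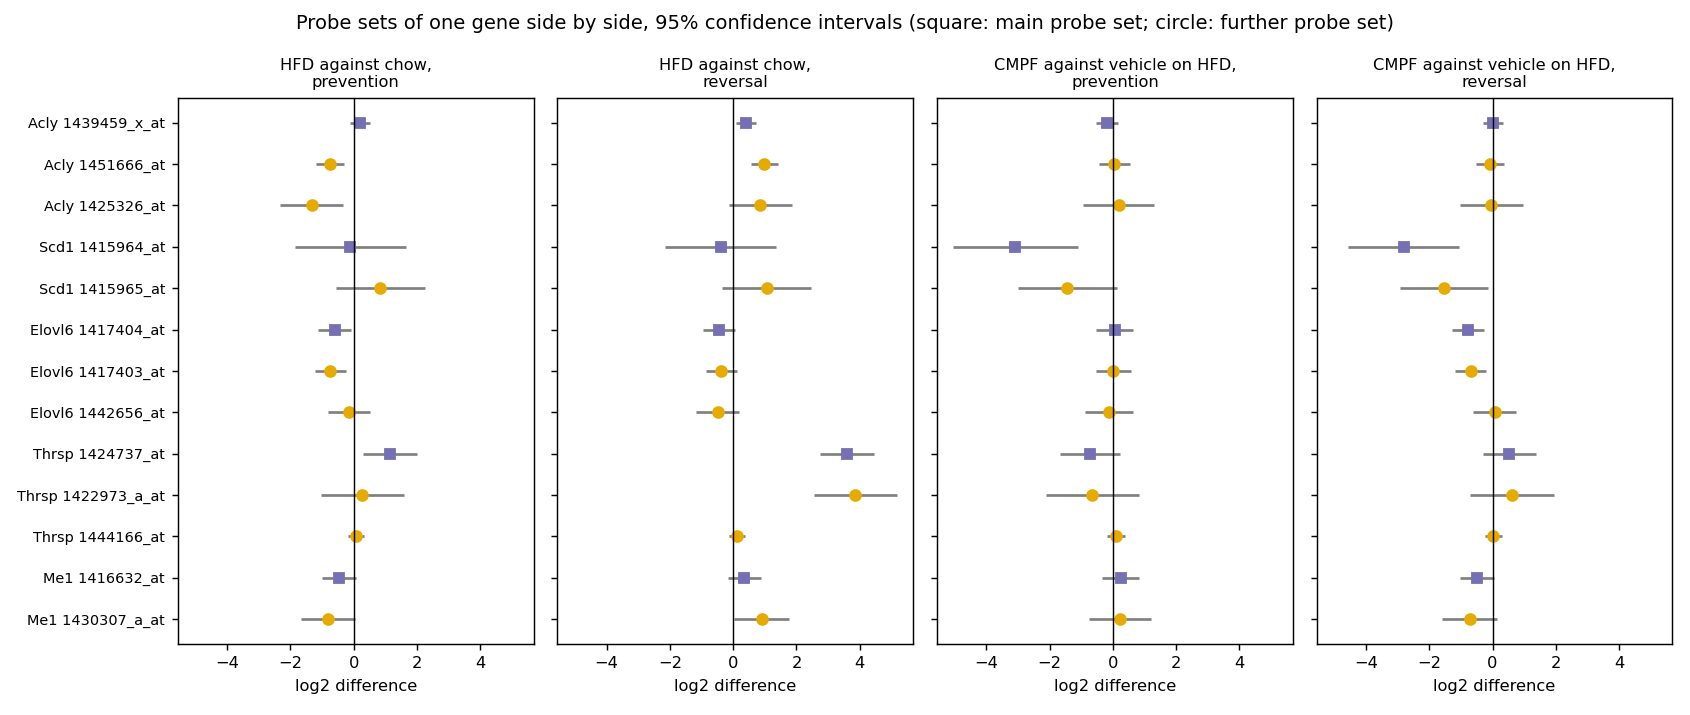
Log2 difference with 95% confidence interval (x axis) of every probe set past the filter for 5 genes with more than 1 (y axis), in 4 comparisons; squares are main probe sets, circles further ones. The Acly circles lie left of 0 in the first panel (-0.74 and -1.33) and right of 0 in the second, and both Scd1 probe sets lie left of 0 with CMPF.

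Within groups, the members varied from array to array, and the deviations from the group means were compared over the 17 samples. Of 45 pairs of members, 28 had a positive Pearson r, with a median r of 0.24. An exact two-sided permutation test within groups put 5 pairs under 0.05 and 0 after adjustment over the 45 (smallest adjusted p = 0.423 for r and 0.318 for Spearman's rho). Scd1 and Me1 varied most closely (r = 0.78, exact permutation p = 0.0139; rho = 0.77, p = 0.0125). Without the 2 samples farthest from the median of Scd1 the r was 0.77, and it was 0.86 in the prevention and 0.78 in the reversal model. Acaca and Fasn followed (r = 0.67, exact permutation p = 0.0224; rho = 0.61, p = 0.0469), with 0.58 without 2 samples, 0.90 in the prevention and 0.31 in the reversal model. Srebf1 and Thrsp had r = 0.64 (exact permutation p = 0.0323; rho = 0.68, p = 0.0141), but 0.48 without 2 samples and 0.17 in the prevention against 0.80 in the reversal model. That relation was weak in one model. The lowest pair was Mlxipl and Scd1 (r = -0.54). The 3′ to 5′ index also varied within groups, as from 1.66 to 3.57 in reversal CMPF, and its part in these correlations was not tested.

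**Figure D4:**
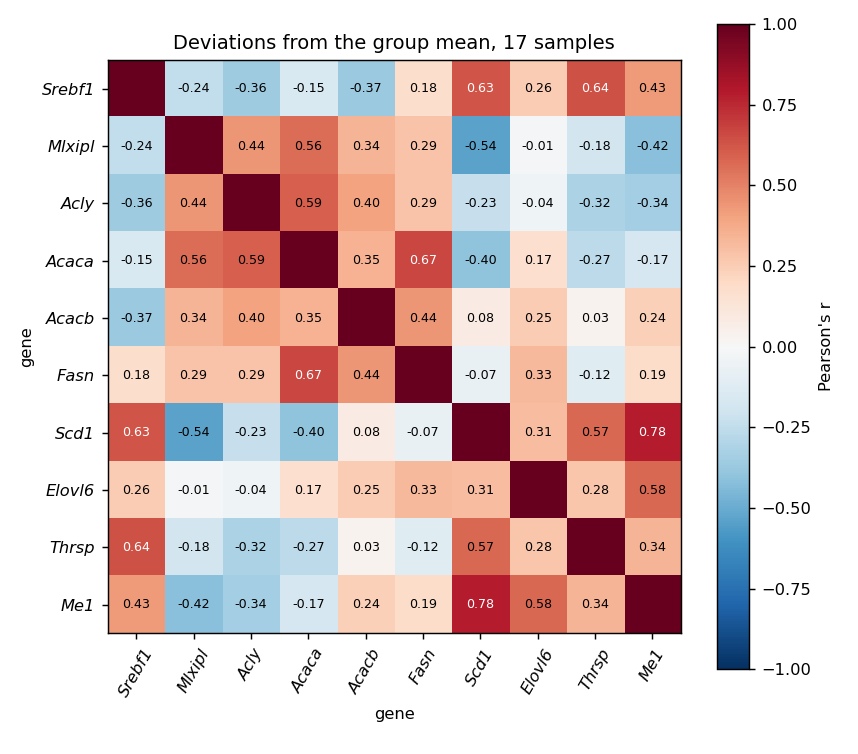
Pearson's r (colour and printed value) between genes (both axes) of the deviations from the group means over 17 samples. Scd1 with Me1 (0.78) and Acaca with Fasn (0.67) are the highest cells, and Mlxipl with Scd1 (-0.54) the lowest.

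The next values are descriptions over 17 samples that share their arrays. By the same measure, the genes most like a member were picked with the members left out, so no member could be among them. For Srebf1 they were Mup10 (0.91), Ppp1r3c (0.90) and Fgf7 (0.87), with Thrsp the closest member at rank 264 of 13220. For Fasn they were Slc9a3r1 (0.89), Nek3 (0.82) and Syt11 (0.80), with Acaca at rank 85. For Scd1 they were Mbip (0.90), Dag1 (0.88) and Cdc27 (0.87), with Me1 at rank 31. For Thrsp they were D630024D03Rik (0.87), Lgr5 (0.86) and Tamm41 (0.85), with Srebf1 at rank 257.

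The wider pathway was followed with 46 further genes in 8 groups, of which 40 were tested. On prevention HFD 2 of the 40 rose and 1 fell, against 1.74% and 3.83% of all genes. Pgd (0.84 ± 0.19) and Tkt (0.76 ± 0.16), enzymes of the pentose phosphate pathway that supplies NADPH, were the ones that rose. Fads2, a desaturase of polyunsaturated fatty acids, fell by 0.49 ± 0.12. In this comparison the 3′ to 5′ index separated chow from HFD, and with it as a covariate Pgd was 0.59, Tkt 0.69 and Fads2 -0.52, none past the threshold (adjusted p = 0.171 to 0.299). All 3 calls were also lost without array 1 or 3 of prevention chow or array 1 of prevention HFD (adjusted p = 0.0809 to 0.151).

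On reversal HFD 4 of the 40 rose and 0 fell, against 2.17% and 0.280% of all genes, and 12 of the 40 were under 0.05 before adjustment, against 22.4% of all genes. Those that rose were Insig1 (1.62 ± 0.37), which holds SREBP in the endoplasmic reticulum, Nr1h3 (0.61 ± 0.13), which encodes the oxysterol receptor LXRα, Idh1 (0.47 ± 0.11), another NADPH source, and Dgat2 (0.46 ± 0.11), which completes triglyceride synthesis. All 4 calls were lost without array 1 of reversal HFD (adjusted p = 0.0859 to 0.142), and each without at least 2 further single arrays. The median over the 40 was -0.016 in the prevention and 0.24 in the reversal model.

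With CMPF on HFD, limma called 0 of the 40 in either model, where 0% and 0.0378% of all genes were called. In the prevention comparison 1 of the 40 had an unadjusted p under 0.05, against 8.02% of all genes, the fructose kinase Khk (-0.64 ± 0.21, adjusted p = 0.471), followed by Tkt (-0.38 ± 0.18, adjusted p = 0.628). The reversal model had 4, against 4.80% of all genes, led by the elongase Elovl5 (-0.81 ± 0.17, adjusted p = 0.141) and the citrate synthase Cs (-0.37 ± 0.11, adjusted p = 0.598). Against chow, mice on HFD with CMPF in the reversal model had 3 of the 40 higher and 1 lower, against 1.61% and 0.393% of all genes. Lpin1 (3.01 ± 0.61), the phosphatidate phosphatase, Insig1 (1.82 ± 0.37) and Dgat2 (0.62 ± 0.11) rose, and Elovl5 fell by 0.97 ± 0.17. All 4 calls were lost without array 3 of reversal CMPF (adjusted p = 0.0552 to 0.1002), and those of Lpin1, Insig1 and Dgat2 also without others. Prevention mice had 0 past the threshold and 8 under 0.05 before adjustment, against 9.99% of all genes, led by Txnip (0.83 ± 0.26) and Pgd (0.66 ± 0.22), each at an adjusted p of 0.399.

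For the HFD effect, 5 of the 40 differed between models (4 higher, 1 lower in reversal), a share near the 11.0% of all genes called. It was higher in the reversal model for Hsd17b12 (by 2.23 ± 0.51), a reductase of the elongation cycle, Mpc1 (1.92 ± 0.52), a pyruvate carrier subunit, Fads2 (0.74 ± 0.17) and Rxra (0.58 ± 0.16). It was lower for Gckr (-1.24 ± 0.32), which restrains glucokinase. All 5 calls were lost with the 3′ to 5′ index as a covariate (adjusted p = 0.189 to 0.404). They were also lost without array 1 or 3 of prevention chow, array 3 of prevention HFD or array 1 of reversal HFD (adjusted p = 0.0541 to 0.0943). For the CMPF effect 0 of the 40 differed by adjusted p and 3 were under 0.05 before adjustment, against 7.93% of all genes, with Elovl5 (-0.85 ± 0.25) and Lpin1 (2.54 ± 0.92) leading.

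**Figure D5:**
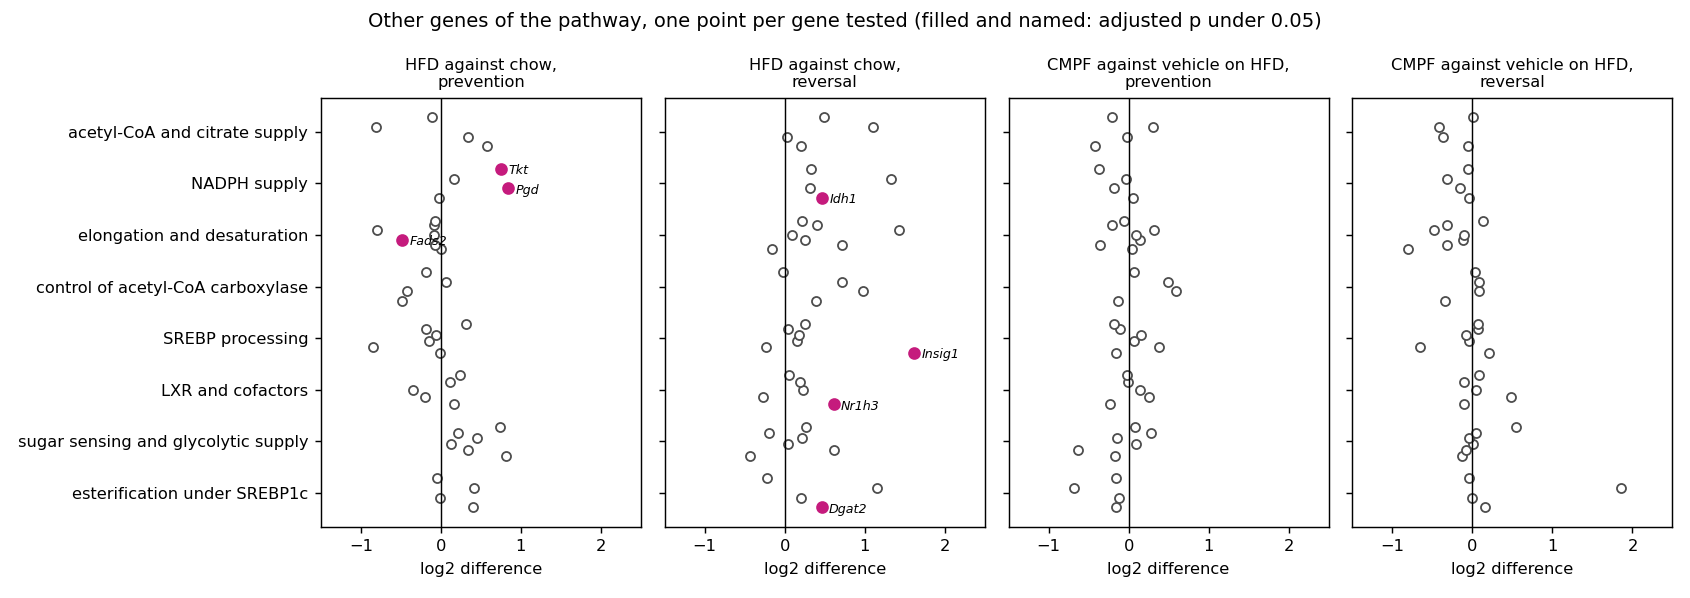
Log2 difference (x axis) of the 40 tested genes of the wider pathway in 8 groups (y axis) and 4 comparisons, one point per gene; filled, named points passed an adjusted p of 0.05. There are 3 filled points on prevention HFD, 4 on reversal HFD and 0 in either CMPF comparison.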

How the data were processed

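The deposited log2 values are RMA output; Affymetrix Expression Console 1.1 was used for it, per the submitters' processing notes. Each hybridisation used biotinylated cRNA from 200 ng of RNA, per the labels' protocols. Which arrays were normalised together is not given in the sources used here. The table held 45101 probe sets, 64 of them controls. The probe annotation gave 34945 a single gene symbol, gave 932 several and did not list 9160. The 40% with the lowest mean over all arrays (under 4.01) were left out; the brightest remaining probe set stood for its gene, which gave 13221 genes.

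The tests came from limma 3.58.1 (R 4.3.3), which fitted the 6 group means to 17 samples at once (11 residual degrees of freedom, 3.02 prior), with eBayes, Benjamini-Hochberg adjustment over all genes and a threshold of 0.05. Single probe sets were fitted without the filter and adjusted over the 34945. Pairs of genes were compared with 15552 permutations within groups (scipy 1.17.1). The fit was tested on simulated data. Arrays give no depth; their number limits the precision.

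The members, lists and tests were chosen with earlier results of these data known. All 10 members were named where HFD was set against chow and where CMPF was set against vehicle. In the remaining comparisons only some of them were named. Of the wider pathway, the genes past the threshold and the 2 with the smallest p in each comparison within or between models were named. Of the fasting, clock and marker lists, at most 2 a comparison were named. So were the 3 genes outside the members most correlated with each of Srebf1, Fasn, Scd1 and Thrsp. Alternatives were all 18 arrays counted, no filter, the probe sets of a gene averaged, joint quantile normalisation, the arrays of one model, the replicate block, the 3′ to 5′ index as a covariate, each array left out and, added after the data were seen, the 4 arrays with an index under 1.7 left out and the mean of both models.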

Additional observations from a re-analysis of the deposited data

Results flagged for a closer look

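The HFD difference of Thrsp from chow was larger in the reversal than in the prevention model, by 2.45 on the log2 scale (limma, adjusted p = 0.0256). All HFD arrays lay above all chow arrays in both models. Mean levels were 9.87 on chow and 11.02 on HFD in the prevention model, and 7.86 and 11.45 in the reversal model. Levels are compared only within a model, so whether chow or HFD carries the gap was not tested. With the 3′ to 5′ index as a covariate it was 1.96 (adjusted p = 0.282), and the call was lost in 7 of 21 alternatives. Mlxipl was singled out because all its HFD arrays lay above the chow mean in the prevention model and below it in the reversal model. The difference of -1.23 did not pass (adjusted p = 0.142), and with the 3′ to 5′ index as a covariate it was 0.13. Elovl6 was singled out in the same way for CMPF, its CMPF samples being above the HFD mean in the prevention model and below it in the reversal model. In the prevention model this holds with arrays 2 and 3 averaged, since array 2 alone (6.93) lay under the HFD mean of 6.95. The difference of -0.84 did not pass (adjusted p = 0.601).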

How the results depend on the processing

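The HFD difference of Thrsp in the reversal model and its mean over both models passed under every alternative except with probe set 1444166_at, and Fasn on reversal HFD lost its call in 10 of 14 alternatives (adjusted p = 0.0365 to 0.168). None of the values below that changed sign was past the threshold, and the cause was not tested. A count given first is that of all genes called, where the reported counts were 737 and 324 for HFD, 0 and 5 for CMPF, 0 and 265 for CMPF against chow (prevention, then reversal), and 1453 and 0 for the difference between models of the HFD and the CMPF effects.

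With the 3′ to 5′ index as a covariate 17 genes passed for prevention HFD, 17 for reversal CMPF, and 0 genes and 0 members for the difference of HFD effects; Srebf1, Mlxipl and Scd1 on prevention HFD were 0.48, -0.44 and 1.32, Acacb on reversal HFD 0.043, Mlxipl for prevention CMPF -0.031 and its difference of HFD effects 0.13. Without the 4 arrays of low index the counts were 2 and 37 for HFD, 1 for reversal CMPF, 42 for reversal CMPF against chow, 1 for the difference of HFD and 2 for that of CMPF effects, with 1, 1 and 0 members for reversal HFD, reversal CMPF against chow and the difference of HFD effects; Srebf1, Mlxipl, Acacb and Scd1 on prevention HFD were 0.30, -0.11, -0.084 and 0.24, and Acacb on reversal HFD 0.22. Counting all 18 arrays gave 36 genes for prevention CMPF and 6 against chow, and Mlxipl for prevention CMPF at -0.013. On the arrays of one model alone the counts were 1151 and 38 for HFD, 0 for reversal CMPF and 59 for reversal CMPF against chow, with 1 member on prevention HFD, 1 on reversal HFD and 1 in the last. Joint quantile normalisation gave 1 gene for prevention and 3 for reversal CMPF and 1 member on reversal HFD; Srebf1 and Scd1 on prevention HFD were 0.13 and 0.0074, and Mlxipl and Elovl6 for prevention CMPF -0.032 and -0.016. With no filter 1 member passed on reversal HFD.

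The replicate numbers did not pair the samples: of 18 same-numbered pairs, 6 had deviations correlated over 0.1 (range -0.37 to 0.44). With the number as a replicate block 1 member passed on reversal HFD, 8 genes passed for reversal CMPF, and Mlxipl for prevention CMPF was -0.013. With a gene's probe sets averaged 2 members passed for the difference of HFD effects; Acly and Scd1 on prevention HFD were -0.26 and 0.37, Scd1 on reversal HFD 0.33, Acly for CMPF 0.0073 and -0.017, and Elovl6 for prevention CMPF -0.023. By single probe set, Scd1 1415965_at was 0.85 and 1.06 for HFD. Acly 1425326_at was -1.33 on prevention HFD, 0.18 and -0.041 for CMPF and -0.24 for the mean HFD effect. Acly 1451666_at was -0.74 on prevention HFD and 0.050 and -0.079 for CMPF. Elovl6 1442656_at was -0.13 and 0.073 for CMPF, with a difference of 0.21, and Thrsp 1444166_at was 0.092 for prevention CMPF.

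Leaving out 1 array at a time, the count for prevention HFD ran from 8 (without chow array 3) to 1624 (without chow array 2) and for reversal HFD from 99 (without HFD array 1) to 577 (without chow array 1), with 1 to 2 members. For CMPF it ran from 0 to 1 in the prevention model and from 0 (without HFD array 3 or CMPF array 2) to 6 in the reversal model. Against chow it ran from 0 to 1 and from 73 (without CMPF array 3) to 264, with 1 to 2 members. For the difference of HFD effects it ran from 0 (without prevention chow array 1) to 2400 (without reversal chow array 1), with 0 to 1 members. For HFD, Srebf1 and Scd1 ran from -0.25 to 0.19 and from -0.52 to 0.40 in the prevention model, and Acacb and Scd1 from -0.34 to 0.22 and from -1.01 to 0.050 in the reversal model. For prevention CMPF, Mlxipl ran from -0.13 to 0.35, Elovl6 from -0.016 to 0.12, Acaca from -0.33 to 0.0050, Fasn from -0.73 to 0.049 and Me1 from -0.0037 to 0.50. For reversal CMPF, Srebf1 ran from -0.36 to 0.30, Mlxipl from -0.15 to 0.50, Acly from -0.070 to 0.15, Acaca from -0.12 to 0.057, Acacb from -0.51 to 0.062 and Fasn from -0.27 to 0.14.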
